A study of Mus musculus with 4 samples.

Results

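Dclk1, Pou2f3, Trpm5, Gng13, Rgs13, Plcb2, Avil and Sh2d6 are genes of the tuft cell, the chemosensory cell of the intestinal lining. They were taken by name, and all 8 were found among the 32285 genes of both single-cell matrices. Cells came from the distal small intestine of 8 mice carrying Lgr5-EGFP-IRES-CreERT2 and Rosa26-mTmG, and both gates came from these same animals. The first allele drives a tamoxifen-inducible Cre and EGFP from Lgr5, a gene of intestinal stem cells, and the second turns membrane GFP on after recombination. All mice received 4-OH-tamoxifen. Mice 1 to 4 were traced for 48 h and mice 5 to 8 for 72 h. GFP-high epithelial cells (clones) and GFP-negative epithelial cells (control) were sorted from every mouse. EGFP from the Lgr5 allele and GFP from the reporter are both green, so the clone gate may also take cells by their Lgr5 level. Villi had been scraped away before cells were released, so the material is enriched in crypts. Hashtag antibodies marked the mouse, and each of 2 pools held all 8 mice: pool 1 the control cells of mice 1, 2, 5 and 6 and the clones of mice 3, 4, 7 and 8, and pool 2 the reverse. Age and sex of the animals are not given in the sources used here.

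Tuft cells sense luminal metabolites and signals of parasites and answer with cytokines, lipid mediators and acetylcholine. Their signalling resembles that of taste cells: a receptor activates a G protein, the βγ part of which stimulates a phospholipase C, calcium is released from internal stores, and a calcium-gated cation channel depolarises the cell. Pou2f3 encodes the POU-domain transcription factor without which tuft cells do not form. Gng13 encodes a G protein γ subunit, Plcb2 the phospholipase C of the chain, and Trpm5 its cation channel. Rgs13 encodes a regulator that shortens the signal of G protein α subunits. Avil encodes advillin, an actin-binding protein of the villin family found in the tuft of long microvilli. Dclk1 encodes a doublecortin-like kinase and is the most used marker of intestinal tuft cells, and Sh2d6 encodes a protein with an SH2 domain whose role is less clear.

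The genes lie on 8 different chromosomes (mm10, GENCODE M21). Pou2f3 (ENSMUSG00000032015) is at chr9:43123939-43210369 on the minus strand. Gng13 (ENSMUSG00000025739) is at chr17:25717171-25719406 on the plus strand, Plcb2 (ENSMUSG00000040061) at chr2:118707517-118728438 on the minus strand and Trpm5 (ENSMUSG00000009246) at chr7:143069153-143094642 on the minus strand. Rgs13 (ENSMUSG00000051079) is at chr1:144138654-144177372 on the minus strand and Avil (ENSMUSG00000025432) at chr10:127000709-127020994 on the plus strand. Dclk1 (ENSMUSG00000027797) is at chr3:55242364-55539068 on the plus strand and Sh2d6 (ENSMUSG00000052631) at chr6:72513641-72521707 on the minus strand. Trpm5, Gng13 and Avil each overlap a gene on the opposite strand: Tssc4, Chtf18 and Tsfm. None of these 3 neighbours was higher in the cells that held the chemosensory genes (0, 3.02 and 27.1 CPM in tuft-like cells, 22.3, 6.29 and 46.0 CPM in all others). Dclk1 overlaps 6 annotated genes, of which Gm21954 and Gm42609 lie on the opposite strand. Gm21954 had 0 UMIs in tuft-like cells and in all others, and the rest were not read.

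Dclk1, Trpm5, Avil and Sh2d6 varied together from tuft cell to tuft cell, a group picked from those correlations (below). The 250 bases upstream of their starts are shown for that reason, from RefSeq on GRCm38.p6. Dclk1 has annotated starts 219 kb apart, and the window of each is given. Capitals mark each ATGCAAA, the first 7 letters of the octamer ATGCAAAT that POU-domain factors such as Pou2f3 bind, read on either strand. Pou2f3 itself has no entry in the table used.

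Dclk1, upstream start (chr3:55242114-55242363, plus strand): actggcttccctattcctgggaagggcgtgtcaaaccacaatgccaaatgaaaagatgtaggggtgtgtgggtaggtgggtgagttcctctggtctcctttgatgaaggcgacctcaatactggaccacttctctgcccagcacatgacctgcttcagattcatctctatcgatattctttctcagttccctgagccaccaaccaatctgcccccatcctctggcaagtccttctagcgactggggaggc
Dclk1, downstream start (chr3:55461478-55461727, plus strand): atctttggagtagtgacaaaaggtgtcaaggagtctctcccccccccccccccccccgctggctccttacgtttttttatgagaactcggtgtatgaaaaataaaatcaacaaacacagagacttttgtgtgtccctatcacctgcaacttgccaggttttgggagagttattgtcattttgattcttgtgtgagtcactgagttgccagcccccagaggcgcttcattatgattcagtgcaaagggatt
Trpm5 (chr7:143094643-143094892, minus strand): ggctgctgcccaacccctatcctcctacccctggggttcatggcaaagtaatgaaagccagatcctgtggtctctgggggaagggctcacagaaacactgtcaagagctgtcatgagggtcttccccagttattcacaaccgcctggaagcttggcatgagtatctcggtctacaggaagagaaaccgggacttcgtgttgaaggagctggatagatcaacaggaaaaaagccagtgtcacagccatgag
Avil (chr10:127000459-127000708, plus strand): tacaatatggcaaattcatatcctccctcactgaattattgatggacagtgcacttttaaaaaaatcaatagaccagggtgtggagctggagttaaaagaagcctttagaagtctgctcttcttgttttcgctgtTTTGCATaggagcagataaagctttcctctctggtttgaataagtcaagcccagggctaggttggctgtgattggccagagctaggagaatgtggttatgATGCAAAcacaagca
Sh2d6 (chr6:72520037-72520286, minus strand): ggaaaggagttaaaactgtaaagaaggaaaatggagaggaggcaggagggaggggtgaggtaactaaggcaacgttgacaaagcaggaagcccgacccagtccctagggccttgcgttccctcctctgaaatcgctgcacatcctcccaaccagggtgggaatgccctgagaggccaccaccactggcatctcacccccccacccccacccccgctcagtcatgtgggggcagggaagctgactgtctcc

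The whole octamer was found in 0 of the 9 windows of 7 of these genes, against 1.60% of all 32851 windows of this length. Its first 7 letters were found in 1 window, that of Avil, against 4.12% of all windows. Both matches in Avil are printed above, and a match describes the letters only.

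Of 5452 barcodes in both pools, 1993 carried 1 hashtag and passed the limits on depth and mitochondrial share, and 1 barcode sequence occurred in both pools. UMIs (unique molecular identifiers, each counting 1 captured molecule) summed per mouse and gate came to between 77566 and 298850 in the 4 clone samples at 48 h. The other 12 sums held between 813389 and 6370450 UMIs. The 48 h clones amount to 110 cells in all, 4, 15, 83 and 8 by mouse, against 586 control cells at 48 h, 631 clone cells and 666 control cells at 72 h. The 83 clone cells of mouse 3 were shallow, with a median of 1841 UMIs. Their hashtags were also mixed: the top hashtag gave a median of 48.6% of a cell's hashtag counts. In the other sums this median was 74.1% to 95.8%, so the mouse and gate of these 83 cells are less certain. Epcam, the antigen of the epithelial sort, had a UMI in 99.1% of cells. Below, CPM means UMIs of a gene scaled to 1e+06 UMIs of the cells summed. A UMI counts a molecule whatever its length, and each gene is compared with itself. Intervals of CPM are exact Poisson and those of shares Wilson, both at 95%, and they cover counting error only.

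The UMIs of all 8 genes were concentrated in the same small group of cells. Cells were clustered with the 8 genes held out, and a cluster of 47 cells was called tuft-like from other markers, 10 of which stood among its 50 leading genes. It was led by Lrmp, Kctd12, Espn, Lima1, Fyb and Cd24a. Of all 5665 UMIs of the 8 genes, 5465 (96.5%) lay in these 47 cells, although the tuft-like cells were shallower (median 10264 UMIs) than the 1946 others (18993 UMIs). Since clusters were built from these same cells, the levels are a description and were not tested.

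Pou2f3 reached 222 CPM in the tuft-like cells and 0.494 CPM in all others. Of the signalling chain, Gng13 was at 686 CPM against 0.666 CPM, Plcb2 at 363 CPM against 0.173 CPM and Trpm5 at 650 CPM against 0.346 CPM. Rgs13 was at 2373 CPM against 0.494 CPM. Thus Pou2f3, Rgs13 and the chain genes Gng13, Plcb2 and Trpm5, from the γ subunit to the channel, were each far above the level of the remaining epithelium. Avil stood at 914 CPM against 1.21 CPM, Dclk1 at 2093 CPM against 0.864 CPM and Sh2d6 at 939 CPM against 0.691 CPM. The ratio of the levels ran from 449 for Pou2f3 and 755 for Avil to 2422 for Dclk1 and 4807 for Rgs13.

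**Figure D1:**
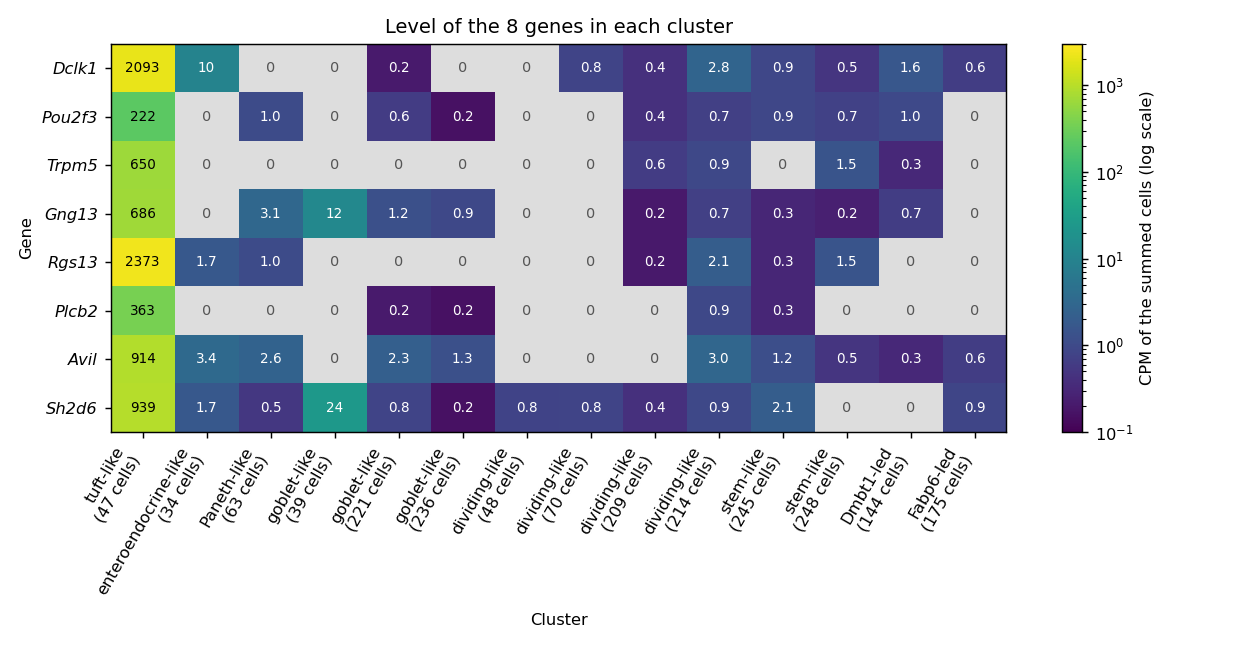
Level of each gene (rows) in each of the 14 clusters (columns), in CPM of the summed cells on a log colour scale; grey cells hold 0 UMIs. The tuft-like column holds 222 to 2373 CPM, and the next highest values are a few UMIs: the 12 and 24 CPM of the 39 shallow goblet-like cells are 1 UMI of Gng13 and 2 of Sh2d6.

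Outside the tuft-like cluster the highest level of any of the 8 genes was 24.5 CPM, which was 2 UMIs of Sh2d6 in 39 shallow goblet-like cells. Enteroendocrine-like cells, the other hormone- and signal-releasing cells of this epithelium, had 10.1 CPM of Dclk1, but this was 6 UMIs in 2 of 34 cells. Plcb2, Trpm5, Gng13 and Pou2f3 were at 0 UMIs in those 34 cells. Paneth-like cells had 3.13 CPM of Gng13, 6 UMIs, and 0 of Dclk1, Trpm5 and Plcb2. In the 493 stem-like cells the levels ran from 0.136 CPM (Plcb2) to 0.949 CPM (Rgs13 and Sh2d6), and in the 496 goblet-like cells from 0 (Trpm5 and Rgs13) to 1.68 CPM (Avil). Among the Fabp6-led cells, a cluster of 175 with absorptive genes, 5 of the 8 genes were at 0, and Dclk1, Avil and Sh2d6 were at 0.649 to 0.865 CPM. Clusters outside differed from each other by a handful of UMIs, several of them from single cells.

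Each gene was found in nearly every tuft-like cell. Rgs13 and Sh2d6 had a UMI in 47 of 47 cells, Dclk1, Trpm5 and Avil in 46, Plcb2 in 43, Pou2f3 in 42 and Gng13 in 40. Outside, the share of cells with a UMI was between 0.206% (Plcb2) and 1.59% (Avil), at a higher median depth. Thinning every cell to 2000 UMIs left Dclk1 in 44 of 47 tuft-like cells, Avil in 40, Rgs13 and Sh2d6 in 39, Trpm5 in 30, Gng13 in 28, Plcb2 in 22 and Pou2f3 in 19. All 8 genes occurred together in 34 tuft-like cells, 7 in 9 cells, 6 in 2 cells and 5 in 2 cells. Of the 1946 cells outside, 1824 had none of the 8 genes, 112 had 1, 8 had 2, 1 had 4 and 1 had all 8. After thinning, 4 tuft-like cells held all 8 genes, 9 held 7, 11 held 6, 14 held 5 and 5 held 4, while 1826 of 1841 deep enough cells outside held none.

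**Figure D2:**
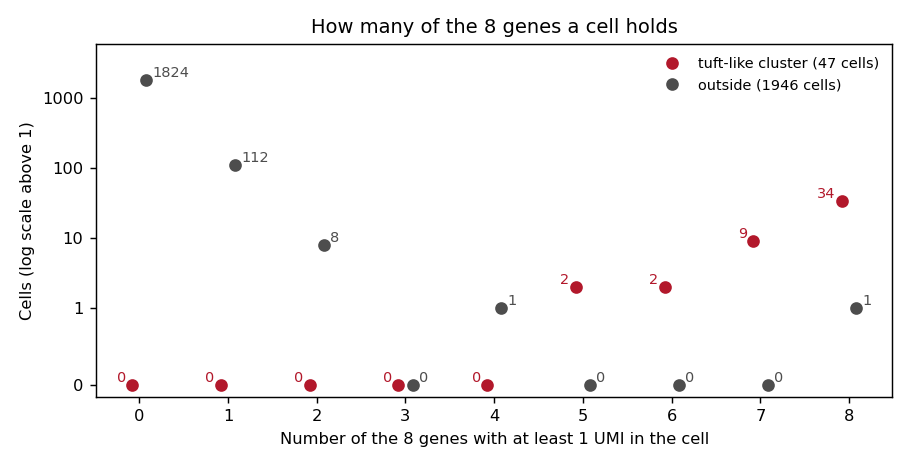
Number of cells (vertical axis, log scale above 1) by how many of the 8 genes had at least 1 UMI in the cell (horizontal axis), for the tuft-like cluster (red, 47 cells) and all other cells (grey, 1946 cells). Tuft-like cells hold 5 to 8 of the genes, a range that 1 other cell, with all 8, reaches, and 1824 others hold none.

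The pair of exceptions outside were unlike each other. The cell with all 8 genes lay in a dividing-like cluster, came from the clones of mouse 8 at 72 h and was deep, with 47348 UMIs. It held 11 UMIs of Dclk1, 2 of Pou2f3, 2 of Trpm5, 3 of Gng13, 6 of Rgs13, 4 of Plcb2, 11 of Avil and 3 of Sh2d6. It also held 33 UMIs of Mki67 and 54 of Top2a, genes of dividing cells, and 15 of Lgr5. The cell with 4 genes was goblet-like, from the clones of mouse 5 at 72 h, with 4385 UMIs and 6 UMIs of the 4 genes together. Whether either barcode held more than 1 cell was not tested. UMIs outside the cluster also had another makeup: Avil gave 49 of 200, against 606 of 5465 inside, and Rgs13 gave 20 of 200, against 1574 of 5465 inside.

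Defining genes of several other lineages were at 0 in the cells carrying the chain, while some marker lists were not lower there than outside. Atoh1, the regulator of the secretory lineages, and Neurod1, of enteroendocrine cells, were at 0 UMIs in all 47. Of 9 T-cell or intraepithelial lymphocyte markers, 2 were found, with 3 UMIs, and Cd3e, Cd3g, Cd8a and Trac were at 0. Of 10 myeloid or mast cell markers 1 was found, with 8 UMIs, and none of 5 erythroid genes. Ptprc (CD45), against which the sort was stained, had a UMI in 18 of 47 tuft-like cells (38.3%) and in 10 of 1946 others, and Epcam had one in 97.9% of tuft-like cells. Goblet markers (8 of 10 found) summed to 799 CPM against 34966 CPM outside, Paneth markers (10 of 11) to 190.0 CPM against 7467 CPM and stem markers (11 of 12) to 603 CPM against 3352 CPM. Enterocyte markers (10 of 13) summed to 743 CPM against 4176 CPM, enteroendocrine markers (6 of 13) to 10.6 CPM against 868 CPM and dividing-cell markers (12 of 12) to 820 CPM against 2689 CPM. M cell markers (4 of 7) stood at 187 CPM against 172 CPM, with Gp2 at 0, and secretory progenitor markers (6 of 9) at 412 CPM against 502 CPM. Some lists were higher inside on few UMIs: B or plasma cell markers at 25.6 CPM against 2.89 CPM (17 UMIs, 2 of 7 found, Cd79a and Ms4a1 at 0) and endothelial markers at 18.1 CPM against 4.37 CPM (12 UMIs, 2 of 5 found, Pecam1 at 0). Neuron or glia markers (3 of 10) were at 7.54 CPM against 5.65 CPM with 5 UMIs, and stromal markers (1 of 6) had 1 UMI. The part of other cell types in the cluster was not tested.

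Within the tuft-like cluster each gene had its own spread. Rgs13 ran from 189 CPM to 5647 CPM per cell with a median of 1440 CPM, and Sh2d6 from 163 CPM to 3342 CPM with a median of 1054 CPM. Dclk1 had a median of 2213 CPM and a highest value of 4871 CPM. For Dclk1 the coefficient of variation was 0.537, against 0.208 for counting alone, and for Rgs13 0.667 against 0.225. These levels varied from cell to cell well beyond counting. For the transcription factor Pou2f3, with a median of 2 UMIs per cell, it was 0.741 against 0.684, close to counting alone. Gng13 had 0.806 against 0.414, Plcb2 0.955 against 0.472, Trpm5 0.676 against 0.355, Avil 0.603 against 0.312 and Sh2d6 0.630 against 0.300.

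Dclk1, Trpm5, Avil and Sh2d6 varied together from cell to cell, and the G protein subunit gene Gng13 did not follow them. Over the 47 cells the 6 pairs among these 4 genes had Pearson correlations of 0.58 to 0.75 (log2 of CPM + 50). The other 22 pairs had correlations of -0.29 to 0.46, with a median of 0.19. Gng13 correlated with the 4 genes at -0.29 to -0.04. The 4 genes were grouped from these same correlations, so the contrast of the 6 with the 22 pairs follows from the choice. The smaller sets that follow are parts of the same 47 cells and give no independent check. In pool 1 (30 cells) the 6 pairs stood at 0.62 to 0.80 and in pool 2 (17 cells) at 0.49 to 0.79. Without mouse 8, which gave 21 of the 47 cells, they stood at 0.48 to 0.76 (26 cells), and in the 35 control cells at 0.49 to 0.71. The other 22 pairs reached 0.58 in pool 2, 0.58 without mouse 8 and 0.66 in the control cells, so in these smaller sets the ranges of the 6 and the 22 pairs overlapped. Values in 1 cell share its library and depth, so these correlations describe the cells and carry no p-value.

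A property of the cells moved with these genes. The share of UMIs from 82 ribosomal protein genes had a median of 14.3% over the tuft-like cells, from 2.79% to 25.6%. It correlated at -0.62 with Trpm5, -0.60 with Sh2d6, -0.51 with Dclk1 and -0.34 with Avil, and at 0.47 with Gng13 and 0.26 with Rgs13. The ribosomal share also correlated with the log10 of the UMIs of the cell at 0.64. Depth itself correlated at -0.43 with Sh2d6, -0.33 with Trpm5, 0.42 with Gng13 and 0.44 with Rgs13. The part of depth or ribosomal share in the joint variation was not tested.

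**Figure D3:**
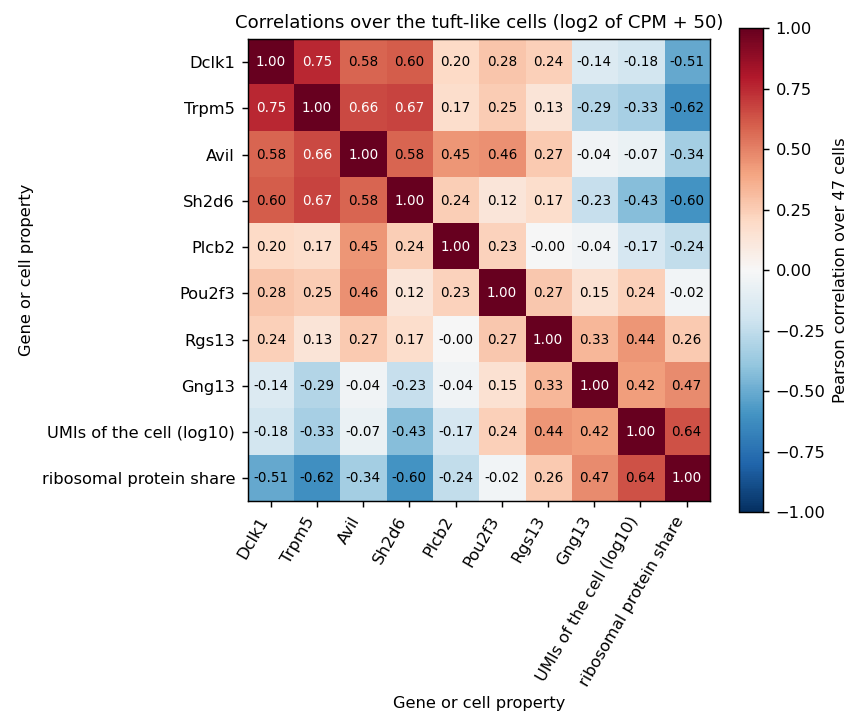
Pearson correlations over the 47 tuft-like cells between the 8 genes (log2 of CPM + 50), the log10 of the UMIs per cell and the share of ribosomal protein UMIs; red is positive, blue negative. Dclk1, Trpm5, Avil and Sh2d6 form a block of 0.58 to 0.75, and Gng13 is at or below -0.04 with each of them.

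Over all 1993 cells, other genes shared the pattern of the 8. By correlation with the mean log-normalised level of the 8 genes, the 10 most alike, the 8 themselves left out, included Fyb (0.946), Lrmp (0.935), Pik3r5 (0.927), Pygl (0.923), Pik3cg (0.922), Sh2d7 (0.916), Nebl (0.915), Ly6g6f (0.914) and Ltc4s (0.906). Of the 50 most alike, 41 were shared by both pools. Pik3r5 and Pik3cg encode the regulatory and catalytic subunit of a phosphoinositide 3-kinase. Pik3r5 was at 351 CPM in tuft-like cells and 0.247 CPM outside, and Pik3cg at 389 CPM and 0.420 CPM. For single genes, Dclk1 was most like Trpm5 (0.952), Sh2d6 (0.943) and Rgs13 (0.941). Pou2f3 was most like Avil (0.832), Gng13 most like Rgs13 (0.835) and Plcb2 most like Pik3r5 (0.877). The similarity rests on the contrast of 47 cells with all others.

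Partners of the chain were present in part. A list of 27 genes named the other receptors, G protein subunits, channels and effectors of taste-like signalling. In the tuft-like cells 16 had a UMI, and 8 were at least 10 times higher per cell than outside. Gnat3, the α subunit gustducin, had 31 UMIs in 17 tuft-like cells and 1 UMI in all others. Gnb3, its β subunit, had 6 UMIs and 0 outside, while the widely used Gnb1 was at 333 CPM and 178 CPM. Itpr2, a calcium release channel, was at 662 CPM against 15.4 CPM, whereas Itpr3, the release channel of taste cells, was at 43.7 CPM against 58.7 CPM. Plcg2, another phospholipase C, was at 342 CPM against 4.47 CPM. Of the chain below the receptor, UMIs of an α, β and γ subunit, a phospholipase, a release channel and the cation channel were thus all found in these cells.

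Receptors were sparse. Sucnr1, the succinate receptor, had 14 UMIs in 9 tuft-like cells and 3 UMIs outside. Ffar3, a receptor of short-chain fatty acids, had 71 UMIs in 23 cells and 2 outside, and Vmn2r26, a vomeronasal-type receptor, 15 UMIs in 6 cells and 3 outside. Tas1r3, the shared subunit of sweet and umami receptors, had 9 UMIs in 7 cells and 30 outside. Tas1r1, Tas1r2, Tas2r108, Tas2r131, Tas2r138 and Tas2r143 had 0 UMIs in tuft-like cells. With 0 UMIs of 663239 a level of up to 4.52 CPM is allowed, so these receptors were not detectable at this depth. Ffar2, Gnat2, Rgs21, Calhm1 and Scn2a were also at 0.

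Other genes of tuft cell identity followed the 8. All 37 genes of a list of regulators, receptors, enzymes and structural genes had a UMI in the tuft-like cells, and 28 were at least 10 times higher per cell there. The most abundant were Krt18 (5918 CPM), Kctd12 (3221 CPM) and Cd24a (2351 CPM), of which Krt18 and Cd24a were less than 10 times higher per cell. Of the transcription factors, Spib had 165 UMIs in tuft-like cells and 7 outside, Hmx2 159 and 5, Hmx3 157 and 2, and Gfi1b 19 and 0. Il25, the cytokine through which tuft cells call type 2 immunity, had 21 UMIs and 0 outside. Chat, for acetylcholine synthesis, had 87 UMIs and 4 outside.

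Lineage tracing asks whether cells recently derived from Lgr5+ stem cells express the same genes as the surrounding epithelium. In 48 h clones the 8 genes were almost unseen. In all 4 mice together 7 UMIs of the 8 genes were counted among 747178 UMIs, 1, 2, 3 and 1 by mouse, and no clone cell was tuft-like. With 0 of 110 cells a tuft-like share of up to 2.73% is allowed, and 14 of 586 control cells (2.39%) were tuft-like. That limit takes all 110 as clone cells, and 83 of them are the shallow cells of mouse 3 with mixed hashtags. In summed libraries, fewer tuft cells and less RNA per tuft cell cannot be told apart.

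Dclk1 in 48 h clones was at 0, 0, 0 and 7.89 CPM in mice 1 to 4, against 42.8, 98.5, 0.595 and 34.1 CPM in the control gate of those animals. Rgs13 was at 12.9, 0, 0 and 0 CPM against 42.8, 130, 0 and 23.3 CPM. Gng13 was at 0 in all 4 clone samples against 19.1, 40.8, 0.595 and 9.82 CPM. Control cells of mouse 3 were as low as clones, with 0 tuft-like of 218 cells, so the groups overlapped for all genes except Gng13. Trpm5 in control cells ran from 0.198 to 38.7 CPM and in clones reached 4.10 CPM in mouse 2. Avil ran from 1.19 to 43.5 CPM in control and Sh2d6 from 0.595 to 57.1 CPM, both with 3.35 CPM in the clones of mouse 3 and 0 in the other clones. Pou2f3 stood at 0, 4.10, 3.35 and 0 CPM in clones and at 4.28, 10.2, 0.397 and 4.61 CPM in control. Plcb2 was at 0 in all clones and at 6.26, 17.7, 0 and 6.45 CPM in control. Groups did not overlap for 1 of the 8 genes, Gng13, against 8.46% of all genes tested. The exception rests on zeros: 3 counts in these clone samples would be 10.04 to 38.7 CPM, far above the 0.595 CPM of control mouse 3, so separate levels of Gng13 are not shown.

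Pooled over mice, control exceeded clones at 48 h by a ratio of 22.7 for Dclk1 (counting interval 4.05 to 899) and of 23.2 for Rgs13 (4.14 to 919). The ratio was 11.03 for Avil (1.96 to 438), 10.4 for Sh2d6 (1.85 to 415) and 7.35 for Trpm5 (1.30 to 293). Against a floor of 3 counts over the group, Gng13 was at least 2.98-fold lower and Plcb2 at least 1.28-fold lower in clones. For Pou2f3 the ratio was 1.31 (0.343 to 11.2), an interval that includes 1. These ratios rest on 1 clone UMI each, or 2 for Pou2f3.

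Across the 4 mice the difference at 48 h was not called for any of the 8 genes with edgeR's quasi-likelihood test (0 of 8; 0% of 10606 genes tested, with 1271 at an unadjusted p under 0.05 and none of the 8 among them). Dclk1 had a log2 difference of -4.91 ± 3.01 (SE, adjusted p = 0.550). With the mouse as a block, since both gates came from the same animals, 2 of 8 were called, both lower, against 0.896% of all genes. These were Dclk1 (-4.52 ± 0.80, adjusted p = 0.0126) and Rgs13 (-4.58 ± 0.85, adjusted p = 0.0176). Each SE printed with a log2 difference is that difference divided by the square root of the test's F. It is not the spread of the differences between mice, here or in the comparisons below. Here both folds rest on 1 clone UMI each, and the counting interval of the pooled ratio was 4.05 to 899 for Dclk1. The size of these 2 folds is therefore not known to the precision of the SE. In the blocked fit 1 of the 8 was called without mouse 1, 0 without mouse 2, 4 without mouse 3 and 3 without mouse 5, and over all genes 16, 7, 222 and 102 were called, against 95 with every mouse. With no filter on low counts and no block, 6 of 8 were called, all lower (1.66% of all genes lower). Pou2f3 and Plcb2 were not. In that edgeR quasi-likelihood fit the lowest adjusted p over all genes was 1.84e-77, smaller than 4 mice per group can support. Its calls, here and below, are therefore listed only and not read as evidence. Summed markers of stem cells (12 genes, all measured) also differed between gates, at 3289 to 7735 CPM in the 4 clone samples and 2141 to 2816 CPM in control, and their part in the difference was not tested.

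At 72 h the genes were present in clones, unevenly. Of 631 clone cells 12 were tuft-like (1.90%), 1, 1, 0 and 10 in mice 5 to 8, and of 666 control cells 21 (3.15%), 5, 4, 1 and 11 in the same mice. All 8 genes together reached 19.9, 54.1, 4.17 and 214 CPM in clones and 90.8, 184, 13.8 and 332 CPM in control. Every mouse had the lower total in clones, and mouse 8 was highest in both gates.

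The kinase gene Dclk1 at 72 h was at 4.98, 11.1, 0.522 and 49.4 CPM in clones of mice 5 to 8, against 30.3, 58.8, 4.61 and 74.6 CPM in control. Rgs13 was at 2.88, 9.84, 0.522 and 64.5 CPM in clones against 21.6, 51.5, 2.56 and 103 CPM in control. Both were lower in clones in each of the 4 mice, while the groups overlapped: clones of mouse 8 exceeded the control cells of mice 5 and 7. Trpm5 was at 2.88, 4.92, 0 and 15.9 CPM in clones against 8.10, 16.9, 1.03 and 23.0 CPM in control. Gng13 was at 0.262, 6.15, 0.522 and 19.2 CPM against 4.63, 7.68, 3.59 and 30.04 CPM. The channel and the γ subunit genes were thus also lower in clones of all 4 mice. Avil was at 2.62, 3.69, 0 and 27.5 CPM against 9.45, 17.7, 0 and 36.7 CPM, and Sh2d6 at 2.88, 8.61, 0.522 and 22.6 CPM against 12.0, 21.1, 1.03 and 38.1 CPM. Plcb2 was at 2.36, 9.84, 0.522 and 7.69 CPM against 3.28, 7.30, 0 and 15.9 CPM, and Pou2f3 at 1.05, 0, 1.56 and 7.06 CPM against 1.54, 2.69, 1.03 and 10.3 CPM. For Plcb2 2 of 4 mice and for Pou2f3 3 of 4 were lower in clones.

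**Figure D4:**
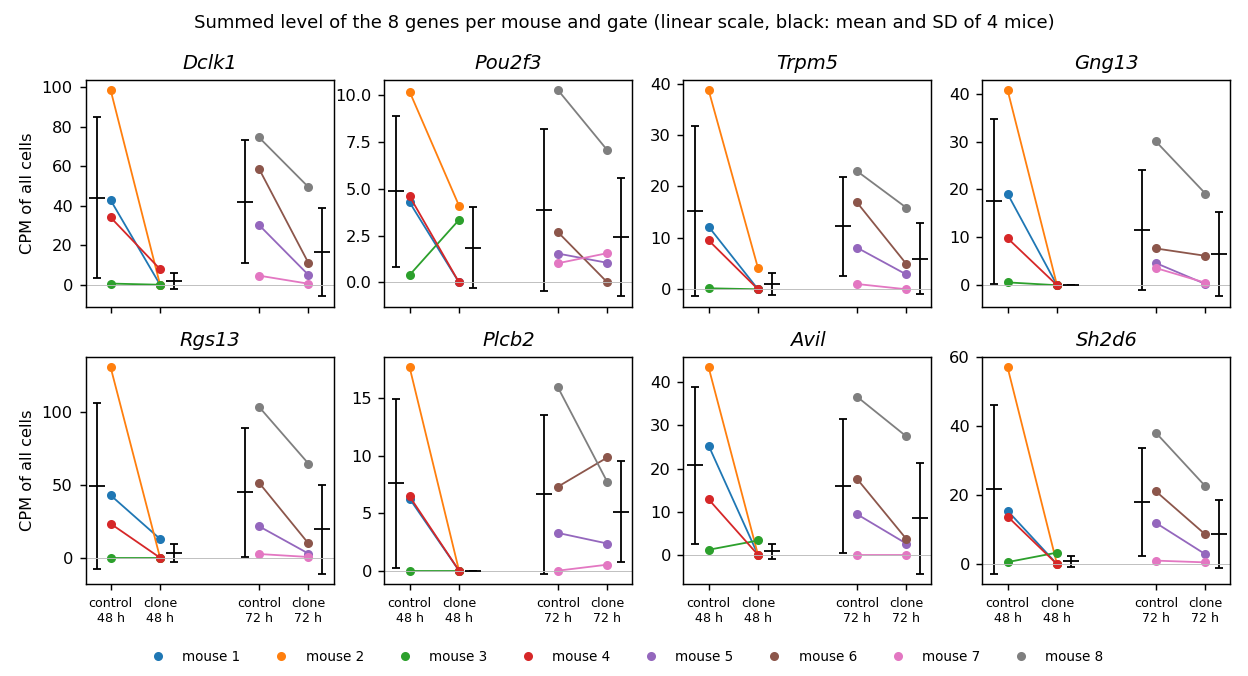
CPM of all cells summed per mouse and gate for each gene (linear scale), with a line joining control and clone of 1 mouse and black bars for the mean and SD of 4 mice. Clones at 48 h lie between 0 and 12.9 CPM, and at 72 h most lines fall from control to clone while mouse 8 is highest in control for every gene.

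As a mean over mice, Dclk1 was at 16.5 ± 22.4 CPM in 72 h clones and 42.1 ± 31.0 CPM in control (SD, n = 4). Rgs13 was at 19.4 ± 30.3 CPM and 44.8 ± 44.0 CPM, and Trpm5 at 5.91 ± 6.93 CPM and 12.3 ± 9.66 CPM. Pooled over cells the ratio of control to clone was between 1.15 for Pou2f3 (counting interval 0.789 to 1.68) and 1.76 for Dclk1 (1.54 to 2.01). Mouse 8 weighs heavily in these ratios, with 315 of the 344 clone UMIs of Dclk1. Without it, from mice 5 to 7, the ratio was 7.40 for Dclk1 (5.05 to 11.2), 8.44 for Rgs13 (5.35 to 14.1), 4.91 for Avil (2.74 to 9.57), 4.90 for Gng13 (2.21 to 12.8), 4.21 for Sh2d6 (2.58 to 7.24) and 3.94 for Trpm5 (2.27 to 7.35). For Pou2f3 (1.63, 0.644 to 4.66) and Plcb2 (1.34, 0.744 to 2.52) the interval included 1. Clones of mice 5 to 7 held 1, 1 and 0 tuft-like cells, and their control cells 5, 4 and 1. All these intervals take UMIs as independent, so they cover neither the sampling of so few cells nor the spread of mice. The groups of no gene were free of overlap (0 of 8, against 5.01% of all genes tested).

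With edgeR's quasi-likelihood test without the block, 0 of 8 genes were called at 72 h, as was 0% of all genes; none of the 8 was among the 842 genes at an unadjusted p under 0.05. Dclk1 had a log2 difference of -1.57 ± 0.86 (adjusted p = 0.647). With the mouse as a block 5 of 8 were called, all lower in clones, against 1.87% of all genes (1.12% lower). Dclk1 fell by 1.67 ± 0.20 on the log2 scale (adjusted p = 7.45e-05) and Rgs13 by 1.74 ± 0.22 (adjusted p = 0.000193). Sh2d6 fell by 1.32 ± 0.28 (adjusted p = 0.0159), Avil by 1.26 ± 0.29 (adjusted p = 0.0261) and Trpm5 by 1.12 ± 0.26 (adjusted p = 0.0311). The clone values behind these folds rest on 1, 1, 0 and 10 tuft-like cells in mice 5 to 8. The size of the folds is therefore not known to the precision of these SEs. Gng13 (-1.35 ± 0.41, adjusted p = 0.111), Pou2f3 (-0.87 ± 0.50, adjusted p = 0.431) and Plcb2 (-0.54 ± 0.35, adjusted p = 0.497) were not called. Without mouse 8, 0 of the 7 still tested were called, Dclk1 being at -2.35 ± 0.52 (adjusted p = 0.0591), and 2 of 8 were called without mouse 5 and 3 without mouse 7. Calls over all genes fell with them, from 198 to 37, 43 and 65. The median of the members was -2.25 without mouse 8 (7 genes) and -1.29 with every mouse (8 genes). The 7 did not move alike: Plcb2 and Avil were higher in clones in the blocked fit without mouse 8 (values below). With no filter on low counts and no block 6 of 8 were called lower (1.02% of all genes lower), the SE of Dclk1 being 0.20. That edgeR quasi-likelihood fit, limited as at 48 h, had a lowest adjusted p of 5.01e-76 over all genes. With DESeq2 0 of 8 were called (0.0754% of all genes). Summed stem markers stood at 3803 to 6706 CPM in clones and 1714 to 3314 CPM in control at 72 h, and their part was not tested.

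Direction by mouse can be read only where the control level exceeds what 3 counts would be in the clone library. That held at 48 h in 3 mice for Dclk1, in 2 for Rgs13, in 0 for Pou2f3 and in 1 for each other gene, and clones were lower in each of these. At 72 h it held in 4 mice for Dclk1, Rgs13 and Gng13, in 3 for Trpm5, Plcb2, Avil and Sh2d6 and in 2 for Pou2f3, and clones were lower in all of these except 1 mouse for Plcb2. Clones were also compared with control over both times together. In that comparison edgeR's quasi-likelihood test without the block called 0 of 8 (0.00943% of all genes). Of the 8, Dclk1 alone had an unadjusted p under 0.05 (0.0365), among 1781 such genes. With the block 6 of 8 were called lower over both times, against 4.50% of all genes (3.31% lower). These were Dclk1 (-3.10 ± 0.36, adjusted p = 0.000124), Rgs13 (-3.16 ± 0.38, adjusted p = 0.000231), Sh2d6 (-2.51 ± 0.47, adjusted p = 0.00654), Avil (-2.34 ± 0.47, adjusted p = 0.00976), Trpm5 (-2.19 ± 0.46, adjusted p = 0.0115) and Gng13 (adjusted p = 0.0168). For Gng13 a fitted fold depends on the zeros of the 48 h clones and is not given. Plcb2 (adjusted p = 0.0581) and Pou2f3 (-0.76 ± 0.56, adjusted p = 0.523) were not called. Without mouse 2 the blocked count was 2, and without mouse 8 it was 2, with 76 and 134 of all genes called against 477. With no filter on low counts and no block 7 of 8 were called lower (2.87% of all genes lower), with the limit on that fit given for 48 h. The groups of clones and control over both times overlapped for all 8 genes (0 of 8, against 0.179% of all genes).

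Tracing time was compared within each gate. Control cells at 72 h had log2 differences from control at 48 h of 0.11 (Gng13) to 0.74 (Rgs13), with 0 of 8 called by edgeR, against 0.0849% of all genes. None of the 8 was among the 664 and 575 genes at an unadjusted p under 0.05 in clones and in control. Clones at 72 h against clones at 48 h were also called for 0 of 8, as for 0% of all genes; groups did not overlap for 2 of 8, Plcb2 and Gng13, against 4.48% of all genes. Both had 0 UMIs in every 48 h clone sample, where 3 counts would be 10.04 CPM or more, above most of the 72 h values, so this too shows no separation. In control cells the groups of the 2 times overlapped for all 8 (0 of 8, against 5.76%). The change of the clone-control difference from 48 h to 72 h, the test of whether clones approach control, was called for 0 of 8 (0% of all genes; 554 at an unadjusted p under 0.05, none of the 8) and for 0 of 8 with the block (0.0943%). For Dclk1 it was 3.34 ± 3.89 on the log2 scale. With no filter on low counts, Dclk1 and Rgs13 were called for clones between times (2 of 8, against 0.674% of all genes) and for the change of the difference (2 of 8, against 0.587%), and Rgs13 for control between times (1 of 8, against 0.955%). These calls have the same limit: for control between times that edgeR quasi-likelihood fit had a lowest adjusted p of 1.67e-145 over all genes. The clone values at 48 h rest on 110 cells.

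Mouse 8 was the only mouse with more than 1 tuft-like cell in its clones, and its gates could be set side by side. It gave 10 such cells in clones and 11 in control, and the counting intervals overlapped for all 8 genes. Dclk1 was at 2040 CPM (1816 to 2284) in clones and 1978 CPM (1781 to 2190) in control, and Rgs13 at 2738 CPM (2477 to 3018) and 2726 CPM (2494 to 2973). Gng13 was at 779 CPM (643 to 935) and 780 CPM (659 to 918), Trpm5 at 664 CPM (539 to 809) and 604 CPM (498 to 726), and Pou2f3 at 271 CPM (194 to 369) and 267 CPM (198 to 352). Plcb2 had the largest gap, at 298 CPM (217 to 400) and 422 CPM (334 to 526). This compares 2 samples of 1 mouse and has no replicate check. The clones of mouse 8 were in pool 1 and its control cells in pool 2, so gate and pool cannot be told apart here.

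Levels in control tuft-like cells were read for each mouse, from 3 to 11 cells. Over the 6 control mice with 3 or more tuft-like cells Dclk1 ran from 1597 CPM to 3507 CPM and Rgs13 from 1485 CPM to 3025 CPM. Gng13 was at 374 CPM (229 to 578) and 435 CPM (262 to 680) in mice 5 and 6, and between 634 and 809 CPM in mice 1, 2, 4 and 8. Dclk1 had the opposite order, being highest in mice 5 and 6, at 2843 CPM (2409 to 3333) and 3507 CPM (2973 to 4108). Pou2f3 ran from 150 to 267 CPM, Plcb2 from 270 to 422 CPM, Trpm5 from 525 to 986 CPM, Avil from 672 to 1054 CPM and Sh2d6 from 667 to 1238 CPM. These intervals cover counting error only, and single cells varied beyond it, so whether mice differ was not tested.

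**Figure D5:**
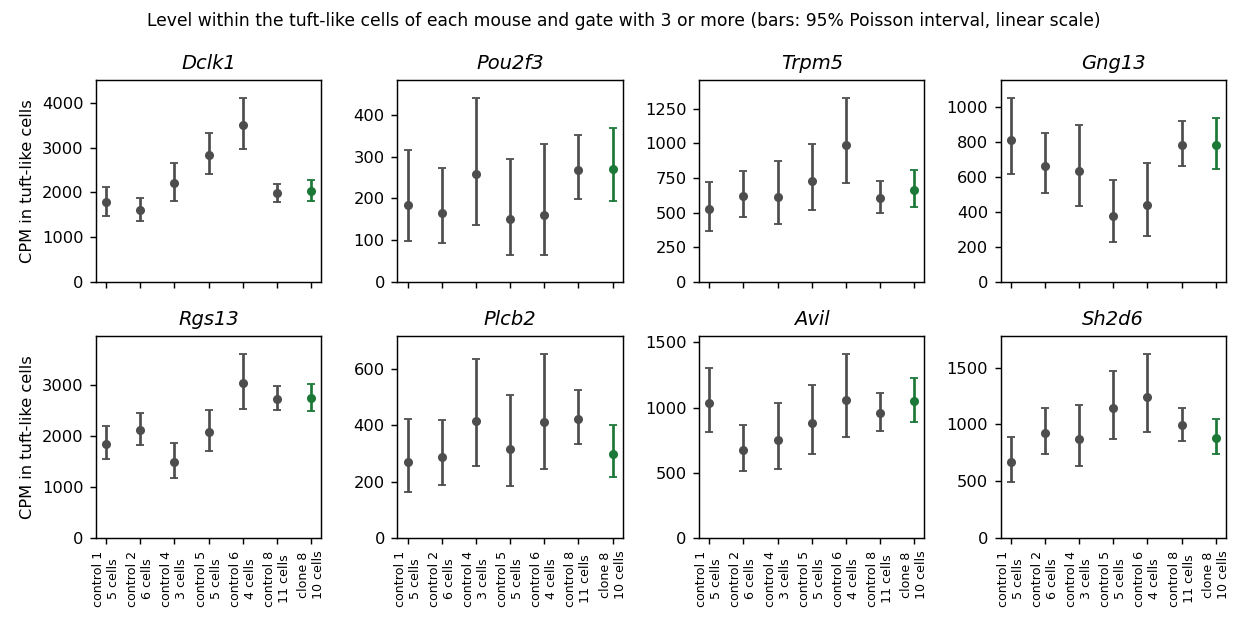
CPM within the tuft-like cells of each mouse and gate that had 3 or more of them (linear scale; grey control, green clone; bars are 95% Poisson intervals). The clone and control values of mouse 8, which come from different pools, lie side by side for all 8 genes. Gng13 is lowest in control mice 5 and 6, where Dclk1 is highest.

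The lists of partner and identity genes were read in the same fits. Without the block 0 of the 11 tested partners and 0 of the 26 tested identity genes were called in all 6 comparisons, against 0% to 0.0849% of all genes. With the block, 1 of the 26 identity genes was called at 48 h, the lower Kctd12 (-2.29 ± 0.41, adjusted p = 0.0126). Of all genes 0.896% were called in that fit at 48 h, 1.87% at 72 h and 4.50% over both times. At 72 h 4 identity genes fell, among them Fyb (-1.23 ± 0.24, adjusted p = 0.00886), Lrmp (-1.49 ± 0.33, adjusted p = 0.0219) and Kctd12 (-0.89 ± 0.20, adjusted p = 0.0214), and 2 rose, Sox9 and Ascl2. Both are also genes of crypt stem and progenitor cells and were less than 3 times higher in tuft-like cells than outside. Over both times 9 identity genes fell, now also Strip2, Hpgds, Ptpn6, Ltc4s and Il13ra1, and 3 rose, with Sox4 added. Calls of the blocked fit over all genes changed when a mouse was left out, and the list genes were not read in those fits. Of the partners Ffar2 alone was called, lower over both times (-1.13 ± 0.31, adjusted p = 0.0425), and it had 0 UMIs in tuft-like cells and 889 outside. The median log2 difference at 72 h without the block was -1.16 over the 8 chemosensory genes, -0.94 over the identity genes and -0.19 over the partners. At 48 h it was -4.36 over the 8, a value that rests on fitted folds against zeros in clones and ran from -7.50 with at least 2000 UMIs per cell to -3.25 under stricter hashtag purity.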

How the data were processed

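Single-cell RNA and hashtag libraries of 2 pools were used. Per the file headers, the deposited matrices hold raw UMI counts per gene and barcode together with hashtag counts. Other deposited tables give only the names of genes, hashtags and barcodes. Per the submitters' processing notes, the authors used Cell Ranger 6.1.2 and mm10. Their hashtag caller, cell filters and the strand used in counting are not given in the sources used here.

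Hashtags were called with HTODemux (Seurat 5.3.0, quantile 0.99), giving 4029 barcodes with 1 hashtag; barcodes with several (493) or none (930) were left out, and no other doublet caller was run. Cells kept had at least 1000 UMIs, 500 genes and under 20% mitochondrial UMIs. In scanpy 1.11.5, cells were scaled to 10000 counts and clustered (2000 variable genes without the 8 members, 30 components, 15 neighbours, resolution 1). A cluster was named when at least 3 markers of a list, members excluded, were among its 50 leading genes. These names are rebuilt here, not the authors'. Counts were summed into 16 mouse-gate samples and tested with edgeR 4.0.16 in R 4.3.3. The test was quasi-likelihood and two-sided, with TMM, pool as covariate and filterByExpr (10606 genes). Benjamini-Hochberg ran over all genes, and a gene was called at an adjusted p under 0.05. Simulated data were used only for the filtered fit without the block. They held no mouse effect, so the blocked and unfiltered fits, which gave the calls among the 8 genes, were not covered. Both gates of a mouse come from the same animal, so mice pair the samples: paired residuals correlated at 0.04 to 0.49 over 8890 genes. Alternatives were the mouse block, DESeq2 1.42.0, other size factors, filters, mitochondrial limits, depth, hashtag purity, cluster resolution and leaving out each mouse. Named genes are the members, the most alike genes, and of each list the called, most abundant and at least 10 times higher genes; some further list genes were named after their values were seen. A gene that this rule names is not reported here. Members and lists were chosen with earlier results of these data known.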

Additional observations from a re-analysis of the deposited data

Results flagged for a closer look

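For each gene in each group of 4 mice, a sample far from the other 3 was looked for with Dixon's ratio. Such a sample was held by 8 of 32 groups. The nominal rate of about 1 in 20 is no yardstick here, since many groups are mostly zeros. In 48 h clones these were Dclk1 in mouse 4 (7.89 CPM), Trpm5 in mouse 2 (4.10 CPM), Rgs13 in mouse 1 (12.9 CPM), and Avil and Sh2d6 in mouse 3 (3.35 CPM each). Each is 1 UMI against 0 in the other mice, a pattern that the ratio always flags. Mouse 8 stood apart for Gng13 in 72 h control cells (30.04 CPM) and for Rgs13 (64.5 CPM) and Avil (27.5 CPM) in 72 h clones. This mouse gave 21 of the 47 tuft-like cells and 3009 of the 5665 UMIs of the 8 genes (53.1%).

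Cells with the chemosensory genes were also present among barcodes left out. Of 1784 barcodes with 1 hashtag and a mitochondrial share of at least 20%, 22 held 3 or more of the 8 genes, 0 of 128 in 48 h clones, 5 of 394 in 48 h control, 3 of 647 in 72 h clones and 14 of 615 in 72 h control. Of 493 barcodes with several hashtags, 10 held 3 or more.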

How the results depend on the processing

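With the replicate block (mouse), 2, 5 and 6 of the 8 genes were called lower in clones at 48 h, at 72 h and over both times, against 0, 0 and 0 without it, and over all genes 95, 198 and 477 were called against 0, 0 and 1. The block changed no call for the change of the difference between times. With the block and a mitochondrial limit of 50%, chosen after seeing the data, 1, 5 and 7 were called (342, 273 and 1055 genes in all). Leaving out mice 1 to 8 in turn with the block, also chosen after seeing the data, gave 1, 0, 4, 2, 3, 2, 2 and 2 at 48 h, 5, 5, 5, 5, 2, 5, 3 and 0 at 72 h, and 5, 2, 7, 6, 6, 7, 6 and 2 over both times. Over all genes these fits called 16, 7, 222, 186, 102, 180, 137 and 82 at 48 h, 43, 65 and 37 without mice 5, 7 and 8 and 202 to 402 without each other mouse at 72 h, and 136, 76, 781, 516, 254, 682, 249 and 134 over both times. Without the block each such fit called 0 of the 8. With no filter on low counts 6, 6 and 7 were called (427, 297 and 775 genes in all), 2 for clones between times, 1 for control between times and 2 for the change of the difference. The cause was not tested. The lowest adjusted p over all genes in the first 3 of these edgeR quasi-likelihood tests was 1.84e-77, 5.01e-76 and 5.27e-71. Such values are smaller than the number of mice can support, so these calls are listed only. Size factors, mitochondrial limits of 10% and 50%, hashtag purity, 2000 UMIs per cell and no pool covariate left 0 calls among the 8 genes in clone-control comparisons; over all genes 5, 0 and 159 were called at 50%, 0, 2 and 29 at 10%, 2, 9 and 11 with hashtag purity and 0, 0 and 24 without the pool. DESeq2 called 66, 8 and 270 genes; it gave adjusted p-values to none of the 8 at 48 h and only to Rgs13 over both times (0.120).

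Of 600 single-gene values under alternatives 465 kept direction and side of the threshold, 132 passed it in the same direction, and 3 reversed. Without mouse 8, Plcb2 at 72 h was 0.37, and 1.62 with the block, and Avil 0.86 with the block; without mouse 6, Plcb2 was -1.20. The median over the 8 genes for control at 72 h against 48 h, 0.32, ran from -1.03 (without mouse 8) to 0.93 (without mouse 2) and was -0.26 without mouse 3. The share of UMIs of the 8 genes in the tuft-like cluster was 95.4% with a top hashtag of at least 70%, and from 95.8% to 96.8% with 1 mouse left out. Cells with 3 or more of the genes were 2.46%, from 1.82% (without mouse 8) to 2.90% (without mouse 3). The same 47 cells formed the cluster at resolutions 0.6 and 1.5 and with the 8 genes among the variable genes. Without the tuft-like cells none of the 8 passed the filter (10538 other genes did), so no value was given. The time comparisons within a gate could not be fitted with the block.

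Depth limits the 48 h clones, where 7 UMIs in all carry the 8 genes. For receptors at 0 UMIs in tuft-like cells, a level of up to 4.52 CPM is allowed.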

Other observations

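Lgr5, the stem cell gene that drives EGFP in these mice, had a UMI in 18 of 47 tuft-like cells (38.3%, interval 25.8% to 52.6%), a level of 55.8 CPM. The share was 4 of 14 in 48 h control, 5 of 12 in 72 h clones and 9 of 21 in 72 h control, so GFP-negative tuft-like cells also held Lgr5 UMIs. It was 1.71% in the deeper Fabp6-led cells, 5.88% in enteroendocrine-like cells, 2.12% to 10.9% in goblet-like clusters and 11.1% in Dmbt1-led cells. Paneth-like cells had 23.8%, dividing-like clusters 14.6% to 52.9%, and the stem-like clusters 61.6% and 87.1%. A background level of Lgr5 was not estimated. The 18 cells came from 6 mice and had a median of 9703 UMIs, against 10712 UMIs in the 29 cells without. Median Trpm5 was 1027 CPM in cells with a Lgr5 UMI and 492 CPM in the others, and median Dclk1 2703 CPM and 2054 CPM. Median Rgs13 was 1451 CPM and 1440 CPM, and median Gng13 539 CPM and 642 CPM. Cells were split after the values were seen, and no test was made.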
